A study of Mus musculus with 6 samples.

Results

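The genes of the NF-κB subunits and of their inhibitors were examined in macrophages of healing mouse infarcts with and without the α5 integrin chain. They comprised 10 genes, chosen by symbol from the 54532 genes of the count table: the subunits Nfkb1, Nfkb2, Rela, Relb and Rel, and the inhibitors and feedback regulators Nfkbia, Nfkbib, Nfkbie, Nfkbiz and Tnfaip3. The choice was made with earlier results of these data known, so counts of these genes beside all genes are descriptive. All 10 passed the filter on low counts, which kept 14522 genes. The study compared 3 libraries from ITGA5 fl/fl mice, whose Itga5 gene carries recombination sites and is intact, with 3 from Myα5KO mice, which carry the same floxed alleles and LyzM-Cre. LyzM-Cre expresses the recombinase from the lysozyme M locus in myeloid cells, neutrophils included, so the deletion was not limited to macrophages and was present before the infarct. All mice were C57BL/6 and 12 weeks old, each library came from a single heart, and tissue was taken 7 days after the left anterior descending artery of the heart had been permanently tied off. Cells were depleted of Ly6G-positive neutrophils and then enriched for CD11b, an antigen shared by myeloid cells, on magnetic columns.

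NF-κB is a family of dimeric transcription factors that drive inflammatory genes in macrophages. In resting cells, inhibitory IκB proteins hold the dimers in the cytoplasm. Stimulation through receptors for microbial products, interleukin-1 or tumor necrosis factor activates the IκB kinases, which mark the IκB proteins for degradation and release the dimers to the nucleus. A slower, noncanonical route instead cuts the Nfkb2 precursor and releases dimers with RelB. Several subunit and inhibitor genes, Nfkbia and Tnfaip3 among them, are themselves transcribed in response to NF-κB and so form feedback loops. In the infarcted heart this system is known for its part in the early inflammatory phase.

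The libraries held 15424451 to 18419287 counts. The label check was met in every library: Itga5 was read 9745, 9666 and 10536 times among controls, against 939, 915 and 895 times among Myα5KO libraries. Of 8 macrophage and monocyte markers (Cd68, Csf1r, Adgre1, Itgam, Cd14, Fcgr1, Mrc1 and C1qa), all were expressed in every library, 6 did not pass the test, Fcgr1 was higher and Cd14 was lower. A fall in a transcript of such bulk libraries can come from fewer cells of a type or from less RNA per cell, which cannot be told apart here.

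In Myα5KO infarct macrophages, 6 of the 10 genes were lower and none was higher at an adjusted p of 0.05 or less in edgeR's quasi-likelihood test. The 6 were the subunit genes Nfkb1, Nfkb2 and Relb and the inhibitor genes Nfkbia, Nfkbib and Tnfaip3. Over all 14522 genes, 8.75% passed this test (5.19% lower and 3.56% higher). That split depends on the scaling: 754 genes were lower and 517 higher with TMM factors, against 518 and 1212 when libraries were scaled by their totals alone. Rela, Rel, Nfkbie and Nfkbiz did not pass. The median log2 fold change of the 10 genes was -0.33, against 0.01 for all genes tested, of which the central 90% lay between -0.54 and 0.48. Nfkb1 alone lay outside that band. The changes were moderate in size, from 62.1% of the control level for Nfkb1 to 107% for Nfkbiz. In 8 of the 10 genes every Myα5KO library lay below every ITGA5 fl/fl library in CPM (read counts relative to library size, scaled with TMM factors), a pattern seen in 13.8% of all genes tested.

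**Figure D1:**
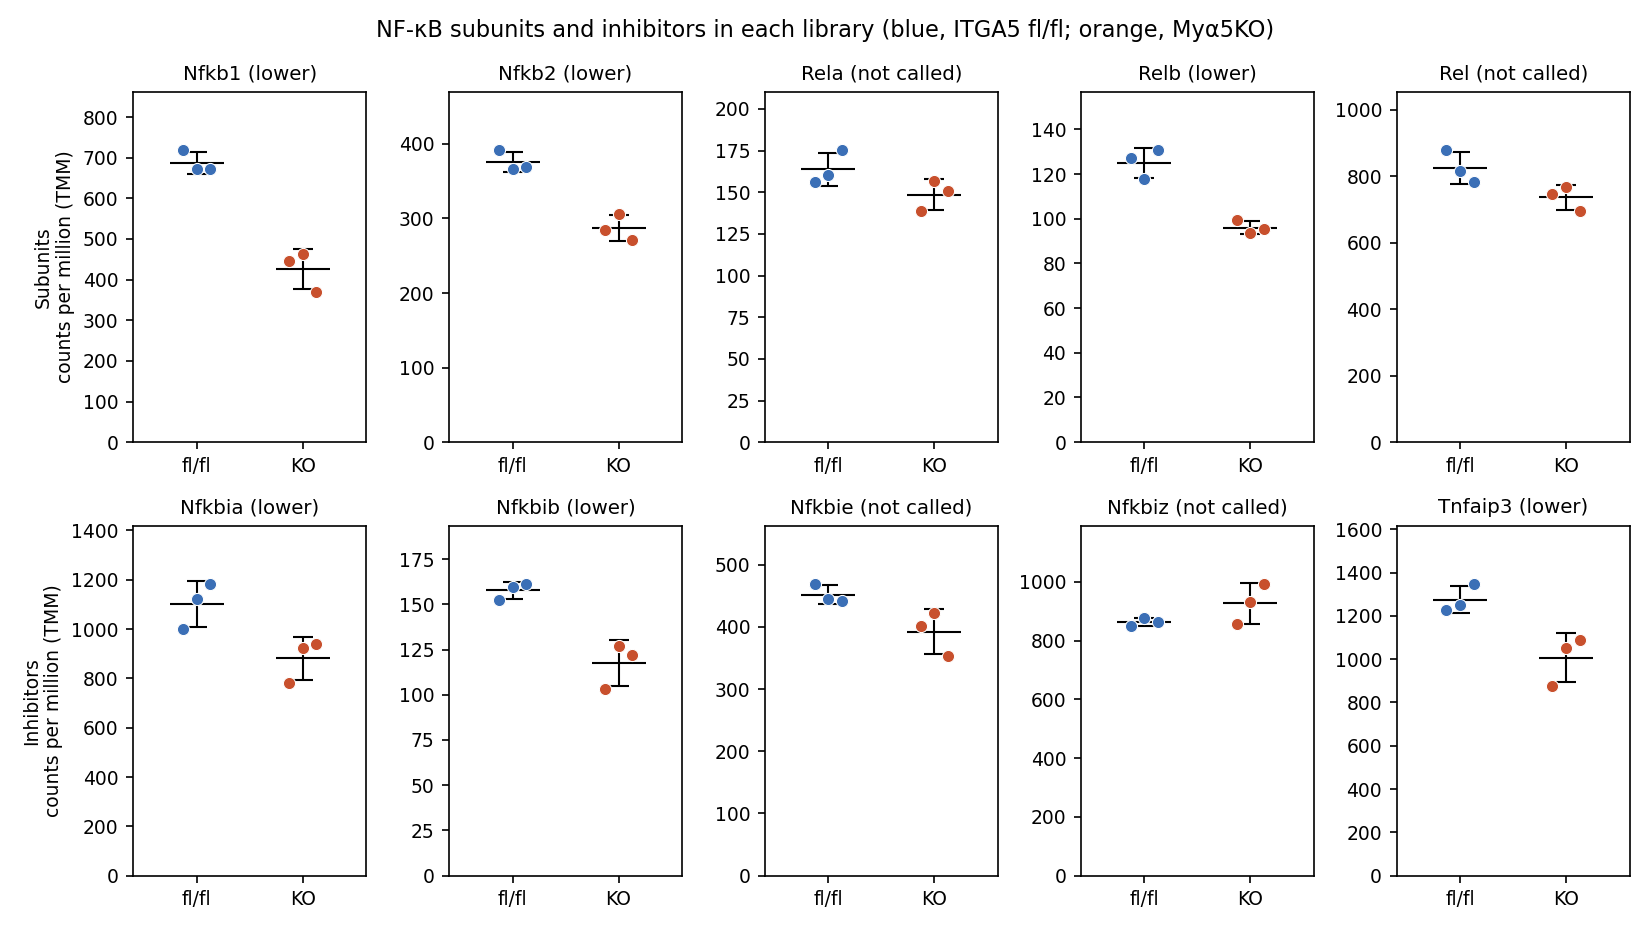
CPM (vertical axis, from 0) of the 10 genes in each library, with the subunits above and the inhibitors below. Points are libraries, horizontal lines the mean of 3 and bars 1 SD, and the groups do not overlap in 8 panels, while those of Rela and Nfkbiz overlap.

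**Figure D2:**
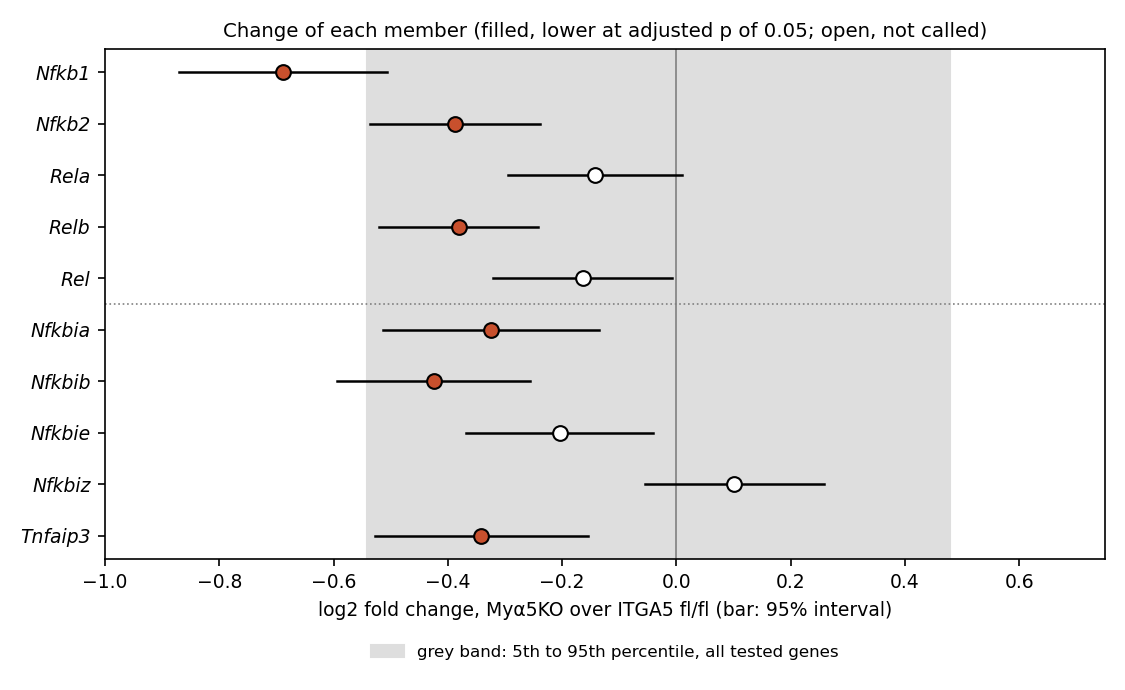
Log2 fold change of each gene, Myα5KO over ITGA5 fl/fl, with its 95% interval from the edgeR fit. Filled points passed an adjusted p of 0.05, and Nfkb1, at -0.69, lies left of the grey band that spans the 5th to 95th percentile of all genes tested.

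Because NF-κB binds a short DNA element in the promoters of its own feedback genes, the promoter sequences were searched for it. RefSeq windows of 300 bases (GRCm38.p6, from 250 bases before to 50 bases after a transcription start site) were found for 7 of the 10 genes. Both strands were searched for the 10-base κB consensus, which reads as 3 guanines, a purine, any 2 bases, 2 pyrimidines and 2 cytosines. Of 32851 windows in the mouse genome, 8.46% held at least 1 match. Matches were found in a window of Nfkb2, Rel, Nfkbia, Nfkbie and Tnfaip3, and none in the single windows of Rela and Nfkbib. Nfkb2 had 3 windows and Tnfaip3 2, of which the first is shown. By window, the unit of the share of 8.46%, 7 of the 10 held a match. Windows 2 and 3 of Nfkb2 overlap and share a match, so they are not independent. Nfkbie (a match) and Rela (no match) did not pass the test, and their windows are not shown. The windows below are shown because they set side by side 3 lowered genes with a match (Nfkb2, Nfkbia and Tnfaip3), a lowered gene without one (Nfkbib) and a gene with a match that did not pass the test (Rel). Each reads 5′ to 3′ along the strand of its gene, and capitals mark the matches, with overlapping matches merged into 1 run.
Nfkb2 (chr19:46304487-46304786, plus strand): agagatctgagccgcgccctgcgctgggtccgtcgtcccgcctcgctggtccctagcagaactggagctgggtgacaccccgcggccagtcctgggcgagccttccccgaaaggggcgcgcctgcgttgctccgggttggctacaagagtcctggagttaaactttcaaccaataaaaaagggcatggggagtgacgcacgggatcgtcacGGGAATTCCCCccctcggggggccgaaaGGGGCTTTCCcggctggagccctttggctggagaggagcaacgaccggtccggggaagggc
Nfkbia (chr12:55492598-55492897, minus strand): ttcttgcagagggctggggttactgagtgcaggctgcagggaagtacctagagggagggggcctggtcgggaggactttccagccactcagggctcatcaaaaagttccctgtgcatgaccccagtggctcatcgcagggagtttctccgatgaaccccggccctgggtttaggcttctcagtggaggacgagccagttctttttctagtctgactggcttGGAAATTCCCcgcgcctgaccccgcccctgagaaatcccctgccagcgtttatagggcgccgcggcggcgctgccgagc
Tnfaip3 (chr10:19015361-19015660, minus strand): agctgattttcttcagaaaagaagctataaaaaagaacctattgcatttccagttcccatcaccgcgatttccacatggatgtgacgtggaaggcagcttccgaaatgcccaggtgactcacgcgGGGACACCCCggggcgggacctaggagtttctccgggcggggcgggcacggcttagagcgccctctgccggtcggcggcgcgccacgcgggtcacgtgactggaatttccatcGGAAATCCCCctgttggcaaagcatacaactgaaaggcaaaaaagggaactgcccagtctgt
Nfkbib (chr7:28766595-28766894, minus strand): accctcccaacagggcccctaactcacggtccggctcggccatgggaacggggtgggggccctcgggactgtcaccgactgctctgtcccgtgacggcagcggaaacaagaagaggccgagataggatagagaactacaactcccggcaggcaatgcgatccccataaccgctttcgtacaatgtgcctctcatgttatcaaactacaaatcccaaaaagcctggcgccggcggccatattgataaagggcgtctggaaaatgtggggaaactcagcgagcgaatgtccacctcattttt
Rel (chr11:23770920-23771219, minus strand): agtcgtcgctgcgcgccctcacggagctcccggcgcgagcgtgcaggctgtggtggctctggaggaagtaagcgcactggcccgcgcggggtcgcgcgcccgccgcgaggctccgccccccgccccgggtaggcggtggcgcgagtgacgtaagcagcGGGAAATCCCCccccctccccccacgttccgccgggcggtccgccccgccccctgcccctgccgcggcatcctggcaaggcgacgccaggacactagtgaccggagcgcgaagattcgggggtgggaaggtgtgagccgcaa
The matches of Nfkb2 began 39 and 38 bases before the start site, where 2 overlap, and 11 bases before it. That of Nfkbia began 29 bases before the start site and those of Tnfaip3 125 and 12 bases before it. In Rel, overlapping matches began 92 and 91 bases before the start site. A match is a description of these letters, and its absence from the Nfkbib window says only that they are not in those 300 bases.

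Nfkb1 (ENSMUSG00000028163, chr3:135584655-135691547, minus strand, GRCm38 as are the coordinates that follow) encodes the p105 precursor of the p50 subunit, which lacks a transactivation domain of its own. Its transcript reached 718, 673 and 671 CPM among ITGA5 fl/fl libraries, against 446, 463 and 370.4 CPM among Myα5KO libraries. Every Myα5KO library lay well below the lowest control, and the third was the lowest of all. The decrease to 62.1% of control was the largest of the 10 genes (edgeR log2 fold change -0.69, SE 0.08, adjusted p 0.000359).

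Nfkb2 (ENSMUSG00000025225, chr19:46304737-46312090, plus strand) encodes p100, the precursor of the p52 subunit and, while uncut, an inhibitor that retains RelB. It was measured at 391, 367 and 368 CPM in control and 284, 305 and 271 CPM in Myα5KO macrophages, without overlap between the groups. The Myα5KO mean was 76.5% of control (edgeR log2 fold change -0.39, SE 0.07, adjusted p 0.00421). In the GENCODE M21 annotation, whose model of Nfkb2 has other ends than the deposited coordinates, 11.6% of its exon bases are shared with the long noncoding RNA AC114539.1 and 6.52% with Psd, both on the opposite strand. Psd had 1468 to 2016 counts per library, and AC114539.1 was not analysed here. Since the labels do not say that strand was used in counting, reads from those bases cannot be told apart. Relb (ENSMUSG00000002983, chr7:19606217-19629438, minus strand), which encodes the partner of p52 in the noncanonical route, had 127, 118 and 131 CPM against 99.2, 93.5 and 95.4 CPM. Its groups did not overlap, and the decrease, to 76.8% of control, was close in size to that of Nfkb2 (edgeR log2 fold change -0.38, SE 0.06, adjusted p 0.00323).

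Neither of the subunits that carry the transactivation domain of the canonical dimers passed the test. Rela (ENSMUSG00000024927, chr19:5637483-5648130, plus strand), which encodes p65, had 156, 160.4 and 175 CPM in control and 139, 157 and 151 CPM in Myα5KO macrophages, and the second Myα5KO library lay above the lowest control. Its log2 fold change of -0.14 had an interval of -0.29 to 0.01 and did not pass (SE 0.07, edgeR adjusted p 0.251). Rel (ENSMUSG00000020275, chr11:23736847-23770970, minus strand), which encodes the c-Rel subunit of hematopoietic cells, had 878, 815 and 782 CPM against 746, 768 and 695 CPM. The groups were separated by a narrow gap that closed when libraries were scaled by their totals alone, and the change of -0.16 (interval -0.32 to -0.01) did not pass (edgeR adjusted p 0.195).

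To set the subunit genes against each other, the make-up of the subunit transcripts was compared per length, as each gene's share of the summed FPKM of the 5 subunits (FPKM, counts divided by gene length and library size, deposited by the authors). Nfkb1 made up 15.4, 15.3 and 15.02% among ITGA5 fl/fl libraries, against 12.3, 12.2 and 10.7% among Myα5KO libraries. The share of Nfkb2 went from 30.8, 30.5 and 30.2% to 28.8, 29.4 and 28.8%, and that of Rel from 30.4, 29.9 and 28.3% to 33.3, 32.6 and 32.5%. For these 3 genes the groups did not overlap, with Nfkb1 and Nfkb2 taking a smaller and Rel a larger share of the subunit transcripts in every Myα5KO library. The shares of Rela (14.9, 16.1 and 17.4% against 17.01, 18.3 and 19.4%) and Relb (8.47, 8.27 and 9.07% against 8.52, 7.62 and 8.58%) overlapped between groups. Shares sum to the whole, so a smaller share of Nfkb1 raises the others even where their own levels are the same. The size of each share also depends on the deposited gene lengths, and other gene models would give other shares.

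**Figure D3:**
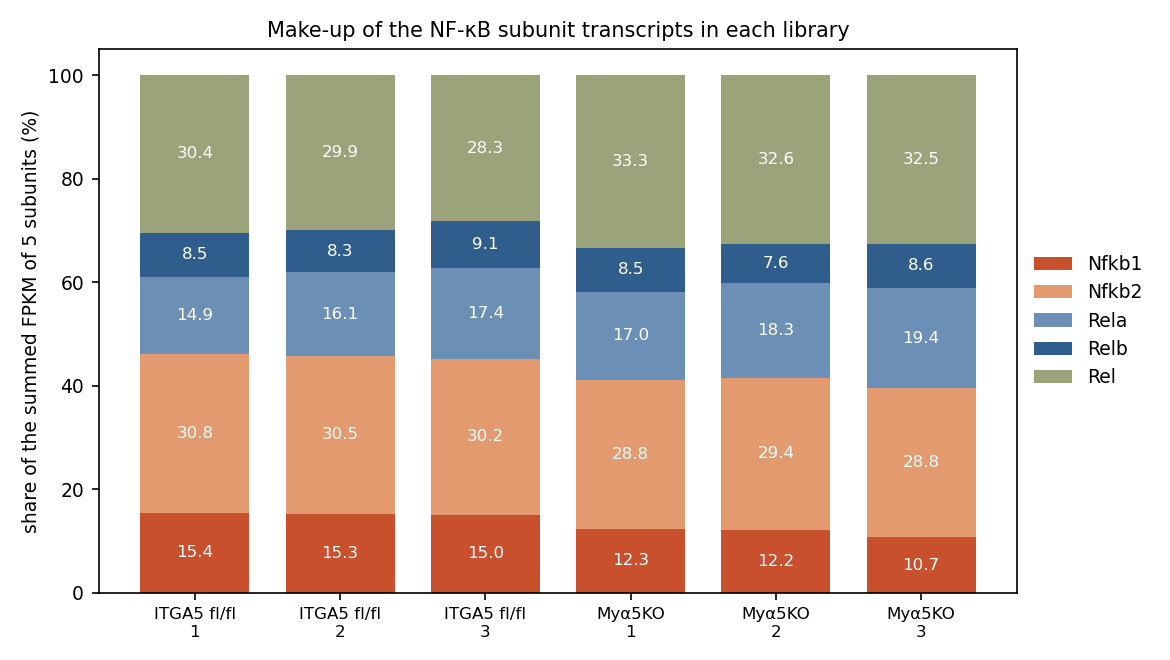
Share of each subunit gene in the summed FPKM of the 5 subunits (percent, vertical axis) in each of the 6 libraries. The lowest segment, Nfkb1, takes 15.02% to 15.4% among ITGA5 fl/fl libraries, against 10.7% to 12.3% among Myα5KO libraries, and the top segment, Rel, is wider in every Myα5KO library.

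Among the inhibitors, Nfkbia (ENSMUSG00000021025, chr12:55489410-55492647, minus strand) encodes IκBα, which is degraded on activation and rapidly remade from its own NF-κB-driven gene. It was the most abundant of the 10 transcripts per length. Its level was 1001, 1124 and 1183 CPM among ITGA5 fl/fl libraries, against 782, 923 and 938 CPM among Myα5KO libraries, so that the highest Myα5KO library stood just under the lowest control. The mean fell to 79.9% of control (edgeR log2 fold change -0.32, SE 0.09, adjusted p 0.0359). Tnfaip3 (ENSMUSG00000019850, chr10:19000910-19015657, minus strand), which encodes the ubiquitin-editing enzyme A20 that shuts off signaling upstream of the IκB kinases, had 1229, 1249 and 1348 CPM against 878, 1052 and 1091 CPM. All Myα5KO libraries lay below the controls, and the mean was 78.9% of control (edgeR log2 fold change -0.34, SE 0.09, adjusted p 0.0272). Both calls were lost when certain libraries were left out, while neither turned its sign. That of Nfkbia was lost when ITGA5 fl/fl replicate 2 was left out (log2 fold change -0.31, adjusted p 0.125), and likewise for ITGA5 fl/fl replicate 3 (-0.27, 0.160), Myα5KO replicate 1 (-0.25, 0.1002) or Myα5KO replicate 2 (-0.36, 0.0581). That of Tnfaip3 was lost without ITGA5 fl/fl replicate 2 (-0.36, 0.0761), ITGA5 fl/fl replicate 3 (-0.30, 0.120) or Myα5KO replicate 1 (-0.26, 0.0715), and both were lost with library-size scaling and on the FPKM scale.

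Nfkbib (ENSMUSG00000030595, chr7:28758251-28767512, minus strand), which encodes IκBβ, a slower-turning inhibitor of the same dimers, had 152, 159 and 161 CPM in control and 103, 127 and 122 CPM in Myα5KO macrophages. The groups were well separated and its decrease, to 74.5% of control, was the largest of the inhibitors (edgeR log2 fold change -0.43, SE 0.08, adjusted p 0.00508). Its exons share 14.5% of their bases with Ccer2, which had 1 to 10 counts per library, and 1.94% with Sirt2, which had 2476 to 2958, both on the opposite strand, and reads from those bases cannot be told apart. Nfkbie (ENSMUSG00000023947, chr17:45555703-45563169, plus strand), which encodes IκBε, had 469, 446 and 441 CPM against 402, 422 and 353 CPM. The groups did not overlap with TMM factors but did with library totals, and the change of -0.20 (interval -0.37 to -0.04) did not pass the test (edgeR adjusted p 0.121).

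Nfkbiz (ENSMUSG00000035356, chr16:55811375-55838899, minus strand) encodes IκBζ, an atypical nuclear member of the IκB family that acts with p50 as a cofactor for a subset of inflammatory genes. It was the only 1 of the 10 with a positive log2 fold change, at 848, 878 and 865 CPM in control and 855, 932 and 993 CPM in Myα5KO macrophages. The first Myα5KO library lay among the controls and the third was the highest of the 6, and the change of 0.10 (interval -0.06 to 0.26) did not pass (edgeR adjusted p 0.440). With library-size scaling the groups were separated upward, but the change still did not pass.

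Ratios of counts within a library do not depend on how libraries are scaled, so each pair of the 10 genes was compared in this way. The ratio separated the groups in 22 of 45 pairs, against 26.4% of all pairs of tested genes. Nfkbiz stood in 9 of these 22, that is, in each pair it forms with another of the 10 genes. Each Myα5KO library held more Nfkbiz relative to that partner than any control did. The Nfkbia to Nfkbiz ratio was 1.18, 1.28 and 1.37 among ITGA5 fl/fl libraries, against 0.915, 0.990 and 0.944 among Myα5KO libraries, and the Nfkb1 to Nfkbiz ratio 0.846, 0.767 and 0.776 against 0.522, 0.497 and 0.373. Nfkb1 was likewise lower in relation to each of the other subunits. Its ratio to Rel was 0.818, 0.826 and 0.858 in control and 0.599, 0.603 and 0.533 in Myα5KO macrophages, and its ratio to Nfkb2 1.84, 1.84 and 1.82 against 1.57, 1.52 and 1.37. In contrast, the ratio of Nfkbia to Tnfaip3 overlapped between the groups, at 0.814, 0.900 and 0.878 against 0.891, 0.877 and 0.860. Pairs that share a gene are not independent of each other, so these counts are descriptive.

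The levels of the 10 genes were ordered per length, so the order between genes depends on the deposited gene lengths. That of Nfkb1, 12061 bases, equals the exon bases of its 10 transcripts in GENCODE M21. That of Nfkb2 is 3289 bases, against 4584 exon bases there. Other lengths would change the order. In the ITGA5 fl/fl libraries Nfkbia led at 682 ± 57.0 FPKM (mean ± SD, n = 3), followed by Tnfaip3 (176 ± 8.98), Nfkbiz (171 ± 2.43), Nfkbie (148 ± 5.15), Nfkb2 (114 ± 4.41), Rel (110.0 ± 6.58), Nfkbib (72.4 ± 2.11), Rela (60.1 ± 3.70), Nfkb1 (56.8 ± 2.29) and Relb (32.1 ± 1.83). The ranges of 3 neighbouring pairs in this order overlapped, namely Tnfaip3 and Nfkbiz, Nfkb2 and Rel, and Rela and Nfkb1. In the Myα5KO libraries Nfkbia still led at 543 ± 50.2 FPKM, but Nfkbiz (183 ± 12.3) stood above Tnfaip3 (138 ± 14.8) without overlap, and Rela (54.3 ± 3.27) above Nfkb1 (35.1 ± 4.33) without overlap. Nfkbie (128 ± 12.6), Rel (97.9 ± 5.68), Nfkb2 (86.6 ± 5.79), Nfkbib (53.7 ± 5.67) and Relb (24.5 ± 0.824) made up the rest. Neighbours with overlapping ranges in this order were Tnfaip3 and Nfkbie, Rel and Nfkb2, and Rela and Nfkbib. By mean FPKM over the 6 libraries Nfkbia ranked 55 of the 14522 genes tested and Relb, the lowest of the 10, ranked 1660.

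Within each group the libraries fell in a shared order for some of the genes. In ITGA5 fl/fl macrophages the first library was the highest for Nfkb1, Nfkb2, Rel and Nfkbie and the lowest for Nfkbia, Nfkbib, Tnfaip3, Rela and Nfkbiz. In Myα5KO macrophages the third library was the lowest for the first set of 4, while the first library was the lowest for the second set of 5. Relb followed neither set, and the sets were formed after the values were seen. The spread within groups lay below that of the median gene for all of them, from 0.063 (Relb) to 0.135 (Nfkbia) as the pooled SD of log2 CPM, against a median of 0.140 over all genes tested.

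By correlation of log2 CPM over the 6 libraries, which includes the difference between groups and is given as a description, the 5 genes most like Nfkbia were Rab20 (r = 0.997), Grina (0.997), Oat (0.997), Lemd2 (0.996) and Katna1 (0.992). Those most like Nfkb2 were Map2k3 (0.998), B4galt1 (0.998), Slc15a3 (0.998), Tgfb3 (0.997) and Zdhhc18 (0.997). With only 6 libraries such values are common, since 92 genes exceeded 0.95 with Nfkbia and 355 with Nfkb2.

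The surrounding pathway was described with lists of 70 further genes, all of which were tested. These lists, too, were chosen with earlier results of these data known. Over all 14522 genes, 5.19% were lower, 3.56% higher and 8.75% either. The share called was 20% for the kinases, 15.4% for the receptor adaptors, 30% for the noncanonical list, 30.8% for further regulators and 45.8% for targets. The lists are short, so a few calls set such shares. In these lists 20 genes were lower and 2 higher. With 1 library left out 15 to 20 were lower, while the number higher was 0 without ITGA5 fl/fl replicate 1, 1 without ITGA5 fl/fl replicate 2, 4 without Myα5KO replicate 1 and 0 without Myα5KO replicate 2. The 10 genes of the IκB kinases and the kinases upstream had a median log2 fold change of -0.01, and none of the catalytic or regulatory subunits of the canonical kinase passed the test: Ikbkb was at -0.06, Chuk at 0.07 and Ikbkg at -0.04 (adjusted p 0.618, 0.511 and 0.798). The signs of Ikbkb and Ikbkg turned with library-size scaling. The IKK-related kinases Ikbke (log2 fold change -0.47, adjusted p 0.00433) and Tbk1 (log2 fold change -0.27, adjusted p 0.0266), which act mainly toward interferon genes, were lower. Of 13 adaptors close to the receptors 2 were lower and none was higher, with a median of 0.04. These were Irak2 (log2 fold change -0.46, adjusted p 0.00197), which relays Toll-like and interleukin-1 receptor signals, and Malt1 (log2 fold change -0.36, adjusted p 0.00669), a protease and scaffold of the complex with Bcl10.

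In the noncanonical list of 10 genes, Map3k14, which encodes the NF-κB-inducing kinase that starts p100 processing, was lower (log2 fold change -0.43, adjusted p 0.00858), a call lost on the log2(FPKM + 1) scale (-0.42, adjusted p 0.0671) and the log2(FPKM + 0.1) scale (-0.43, 0.0676). Also lower was Traf3, whose product directs the degradation of that same kinase (log2 fold change -0.56, adjusted p 0.00487). Tnfrsf11a, the receptor RANK, was higher (log2 fold change 0.25, adjusted p 0.0275), and the median of the list was -0.12. The call of Tnfrsf11a was lost without ITGA5 fl/fl replicate 1 or Myα5KO replicate 2. It was also lost on both FPKM scales and at an adjusted p of 0.01. Of 13 further regulators 4 were lower and none was higher, with a median of -0.14. The largest of these changes was that of Tnip1, which encodes a ubiquitin-binding partner of A20 (log2 fold change -0.68, adjusted p 0.000129). Tnip2, another A20-binding protein (log2 fold change -0.30, adjusted p 0.0185), Bcl3, a nuclear IκB family member that binds p50 and p52 (log2 fold change -0.31, adjusted p 0.0214), and Tax1bp1, an adaptor of A20 (log2 fold change -0.22, adjusted p 0.0490), were lower by less. The call of Bcl3 was lost without ITGA5 fl/fl replicate 2 (-0.30, adjusted p 0.0845), ITGA5 fl/fl replicate 3 (-0.30, 0.0790) or Myα5KO replicate 1 (-0.27, 0.0618). It was also lost with library-size scaling (-0.23, 0.0551), on the log2(FPKM + 1) and log2(FPKM + 0.1) scales (-0.31, 0.0681, and -0.32, 0.0691) and at an adjusted p of 0.01. Nfkbid, a nuclear IκB gene like Nfkbiz, was at 0.13 and did not pass (adjusted p 0.446).

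Of 24 genes known as NF-κB targets, 10 were lower and 1 was higher, with a median log2 fold change of -0.25. The cytokine genes Il1a (log2 fold change -1.33, adjusted p 0.000272) and Il6 (log2 fold change -0.95, adjusted p 0.00390) and the neutrophil-attracting chemokine genes Cxcl1 (log2 fold change -0.97, adjusted p 0.000128) and Cxcl2 (log2 fold change -0.81, adjusted p 0.000139) fell most. Sod2, the mitochondrial superoxide dismutase (log2 fold change -0.66, adjusted p 0.000358), and Cflar, an inhibitor of death receptor signaling (log2 fold change -0.56, adjusted p 0.000842), were also lower. Tnf was at -0.25 and did not pass (adjusted p 0.123) except without Myα5KO replicate 3 (-0.35, 0.0328), without a count filter (-0.25, 0.0200) or with a replicate block (-0.26, 0.0424). Cxcl10, which also responds to interferons, was the gene that was higher (log2 fold change 0.39, adjusted p 0.0228), and is named after its value was seen. Like that of Tnfrsf11a, its call was lost without ITGA5 fl/fl replicate 1 or Myα5KO replicate 2. The call of Cxcl10 was also lost on both FPKM scales and at an adjusted p of 0.01. Il1a, Il6, Cxcl1 and Cxcl2 are also genes the study singled out in macrophages of these mice, so their direction here is not independent evidence.

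**Figure D4:**
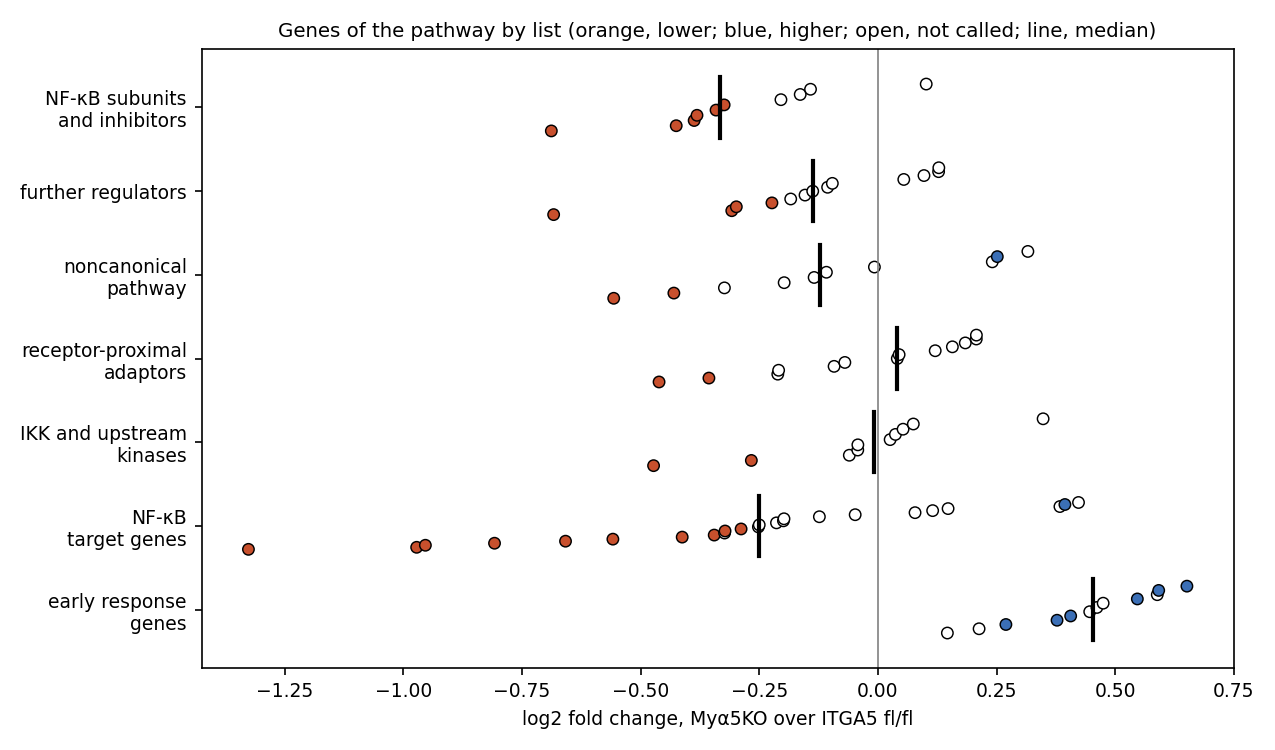
Log2 fold change (horizontal axis, Myα5KO over ITGA5 fl/fl) of every listed gene, with the list median as a vertical line. Orange points were lower and blue points higher at an adjusted p of 0.05, and the medians are -0.33 for the subunits and inhibitors, -0.25 for the targets and 0.45 for the early response genes.

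Several other gene groups moved with the genotype, and their part in the results above was not tested. Over all genes tested, 3.56% were higher and 5.19% lower. Of 12 early genes known to rise when tissue is digested into cells, 6 were higher and none was lower. Btg2 (log2 fold change 0.65), Fos (0.55), Fosb (0.41) and Atf3 (0.59) were among them. All 12 log2 fold changes were positive, with a median of 0.45. The summed level of the 12 was 10433, 11328 and 10059.8 CPM among ITGA5 fl/fl libraries. Among Myα5KO libraries it was 10982, 13817 and 16031 CPM, and the groups overlapped. Of 5 tested neutrophil markers 3 were higher (Ngp, S100a8 and S100a9, log2 fold changes 1.85, 1.51 and 1.55), with a summed level of 176 to 211 CPM against 221 to 322 CPM. The other tested markers, Csf3r (0.13) and Retnlg (-0.65), did not pass, and Cxcr2 had too few counts to be tested. Csf3r alone had 173, 150 and 141 CPM in control and 155, 173 and 179 CPM in Myα5KO libraries. Of 7 dendritic cell markers 1 was higher (Cd209a, 0.57), with sums of 140 to 171 against 167 to 188 CPM. In that list 4 log2 fold changes were positive and 3 negative. Of 5 cardiomyocyte markers 3 were lower (Ttn -1.30, Actc1 -1.03 and Tnnt2 -0.69), with sums of 17.3 to 19.3 against 10.3 to 10.9 CPM. Of 4 endothelial markers 1 was higher (Kdr, 0.26), with sums of 259 to 299 against 285 to 312 CPM. No marker of fibroblasts (5 tested, sums of 1434 to 1648 against 1057 to 1412 CPM) or of T and NK cells (3 of 6 tested, 78.2 to 97.5 against 71.8 to 86.2 CPM) passed the test, and Cd3d, Cd3e and Cd3g of the latter list had too few counts to be tested. All 5 fibroblast markers had a negative log2 fold change, with a median of -0.29, and their sums did not overlap between groups. For 3 of these 5, every Myα5KO library lay below every control. The log2 fold changes of the 3 tested T and NK markers ran from -0.18 to 0.90. Although their sum did not rise, 2 of these 3 were above every control in every Myα5KO library, and 1 had a negative change. The summed macrophage and monocyte markers, which Cd14 leads, were 13005 to 13253 CPM in control and 11248 to 12052 CPM in Myα5KO libraries. No list had a marker at 0 counts in all libraries.

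The calls were compared over other ways of processing the same data. Nfkb1, Nfkb2, Relb and Nfkbib were lower and called in all 17 alternatives, and Rela, Rel, Nfkbie and Nfkbiz were called in none. The sign of each of the 10 genes was the same in all of them, and the number called lower was 4 to 6.

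**Figure D5:**
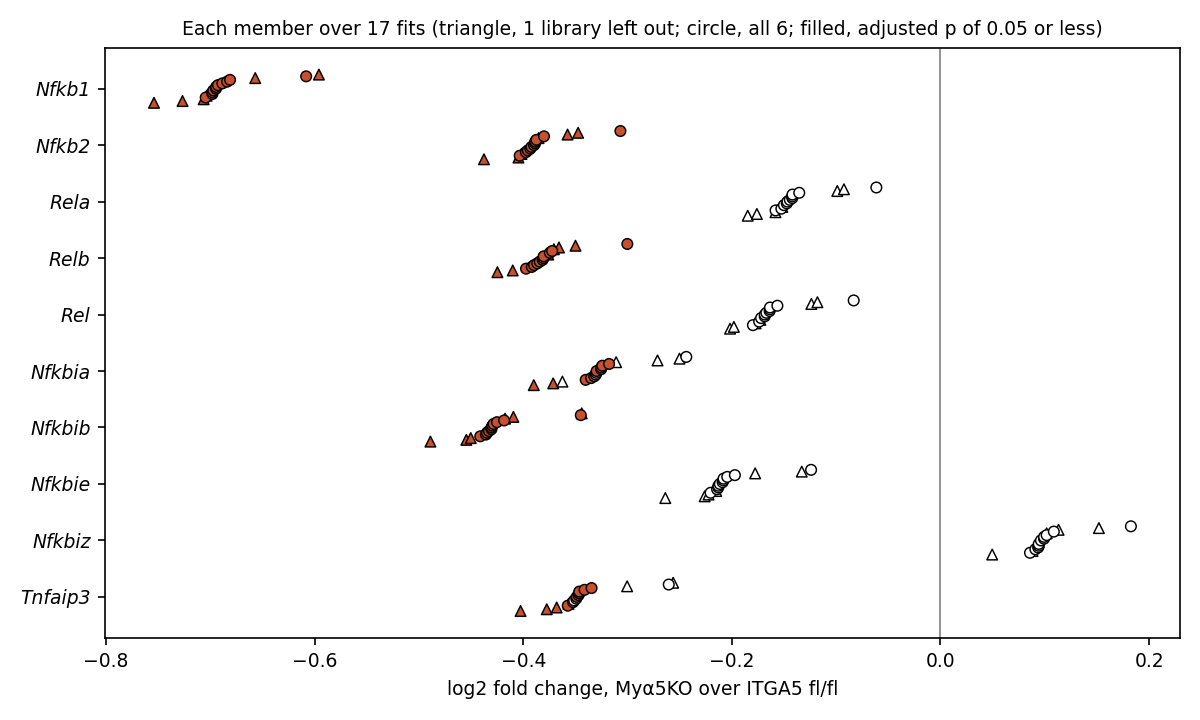
Log2 fold change of each gene (horizontal axis, Myα5KO over ITGA5 fl/fl) in 17 fits, with circles for fits of all 6 libraries and triangles for fits that leave out 1 library. Filled points passed an adjusted p of 0.05, and only Nfkbia and Tnfaip3 have both filled and open points.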

How the data were processed

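The analysis covered 6 bulk RNA-seq libraries, 3 per genotype, grouped by their titles. The authors aligned paired-end reads to GRCm38 (mm10) with TopHat2 2.0.9 and counted them per gene with HTSeq 0.6.1, per the labels' processing notes. How strand and multi-mapped reads were handled is not given in the sources used here. The deposited read count table, whole numbers without normalization, gave all tests. The deposited FPKM table, in which the authors divided counts by gene length and a library factor, gave shares, levels per length and 2 alternatives. Totals were 15424451 to 18419287 counts, without molecular identifiers, so counting precision covers sampling of reads only.

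All genes were fitted with edgeR 4.0.16 in R 4.3.3 (quasi-likelihood test, TMM, minimum count 10, minimum total 15, no covariate). P-values are two-sided and Benjamini-Hochberg adjusted over all 14522. Of the fits, edgeR with and without a replicate block, DESeq2, limma-voom and that on log2(FPKM + 1) were tested on simulated data. The other scalings and filters and the log2(FPKM + 0.1) fit, given below, were not. The 10 members and all lists were chosen with earlier results of these data known. Named from the lists are called genes, at most 6 per pathway list and 4 per marker or early gene list, those of smallest p first, plus Bcl3, Nfkbid, Ikbkb, Chuk, Ikbkg, Map3k14, Tnip1 and Tnf. Cxcl10 was named after its value was seen. The study's methods name DESeq2. Alternatives were DESeq2 1.42.0, limma-voom (limma 3.58.1), limma's trend option on log2(FPKM + 1) and log2(FPKM + 0.1) where 3 or more libraries reached an FPKM of 1, scaling by library size, upper quartile or median ratio, a minimum of 10 counts in every library or no filter, a replicate block, the removal of each library and an adjusted p of 0.01. Promoter windows came from RefSeq (GRCm38.p6), and 7 of 10 members matched. Protein sequences were not used here. The B cell marker list is not reported here.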

Additional observations from a re-analysis of the deposited data

How the results depend on the processing

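The 17 alternatives gave 170 values for the 10 genes, and in 155 of them the gene kept its direction and its side of the threshold. The other 15 were lost calls of Nfkbia and Tnfaip3, and none turned its sign. With library-size scaling Nfkbia was at -0.24 (adjusted p 0.0822) and Tnfaip3 at -0.26 (0.0618). On the log2(FPKM + 1) scale they were at -0.33 (0.0935) and -0.35 (0.0737), and on the log2(FPKM + 0.1) scale at -0.33 (0.0930) and -0.35 (0.0751). At an adjusted p of 0.01 neither -0.32 nor -0.34 passed. With 1 library left out, log2 fold changes ranged from -0.39 to -0.25 for Nfkbia and from -0.40 to -0.26 for Tnfaip3. Leaving aside the fit without a count filter, the adjusted p of Nfkbia was 0.00216 to 0.160 and that of Tnfaip3 0.000738 to 0.120.

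Of the 70 pathway genes, 4 were higher with library-size scaling and 4 without a count filter, against 0 at an adjusted p of 0.01, 0 on each FPKM scale and 0 to 4 with 1 library left out. On the log2(FPKM + 1) and log2(FPKM + 0.1) scales 12 and 10 of them were lower. Ikbkb turned to 0.020 and Ikbkg to 0.038 with library-size scaling, and Ikbkg ranged from -0.097 to 0.022 with 1 library left out, turning without ITGA5 fl/fl replicate 3. The cause was not tested.

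Over all genes, 517 were higher and 754 lower, which became 1212 and 518 with library-size scaling, as the median log2 fold change moved from 0.01 to 0.10. The counts were 150 and 322 with log2(FPKM + 1), 142 and 306 with log2(FPKM + 0.1), 798 and 940 without a filter, 128 and 342 at an adjusted p of 0.01, and 187 to 420 higher with 429 to 671 lower with 1 library left out. Deviations from group means had correlations of 0.051, -0.058 and 0.043 between same-numbered libraries, against -0.101 to 0.063 between differently numbered ones. With 3 libraries per group, such values cannot show whether the numbers pair the libraries. A replicate block gave 464 higher and 717 lower genes and changed no call among the 10. Of the other named pathway genes refitted, Tnf passed with the block (-0.26, adjusted p 0.0424). With 3 libraries per group, changes of the size of those of Rela (-0.14), Rel (-0.16) and Nfkbie (-0.20) did not pass the test at the spread seen here, which does not show that these genes did not differ.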
